A study of Mus musculus with 18 samples.

Results

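Conditioned medium (CM) of 6 mouse mammary tumour cell lines was given to cultured fibroblasts, and the data described here are the 12 libraries, of 18 in all, that received such CM. The lines, WEPtn 13/138, 13/90, 13/44, 18/12, 10/221 and 13/17, came from end-stage WEPtn tumours, a model of invasive lobular breast cancer in which Cre driven by the Wap promoter acts in mammary epithelium and removes E-cadherin there. Normal fibroblasts (NFs) of FVB/n mammary gland were sorted from pools of mice by CD26, the surface peptidase encoded by Dpp4, and the CD26- and CD26+ cells were cultured for 7 days in CM before RNA was taken. Each line's CM was used for 1 CD26- and 1 CD26+ culture, and 6 further libraries, 3 of each cell type, were kept in control medium and serve here as a reference level. The members were taken from the sample labels, and the question was which genes differed between the 6 lines alike in both cell types.

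Fibroblasts read their surroundings through secreted signals. TGF-beta turns on collagens and the contractile smooth muscle genes of myofibroblasts, whereas interleukin 1 and related cytokines turn on chemokines and matrix metalloproteinases. Tumour cells release growth factors, cytokines and metabolites whose mixture can vary from one tumour line to the next.

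The 12 libraries held 11240481 to 13890291 counted reads. Normalised read counts are given as CPM with TMM scaling, which corrects a count for the size of its library but not for the length of the gene. The fibroblast markers Pdgfra, Pdgfrb, Col1a1, Col1a2, Dcn and Vim stood at 274 CPM or more in every library. The labels CD26- and CD26+ name the gate at the sort. After culture Dpp4 was at 0.0776 to 0.883 CPM in the CD26- libraries and at 0.707 to 7.74 CPM in the CD26+ libraries with tumour CM. In control medium it had 2 reads or fewer in each of the 6 libraries of both cell types, so it did not separate them there. The immune cell markers Ptprc, Cd3e, Itgam, Adgre1 and Cd79a had 2 reads or fewer, although Lyz2 had 5 to 48 reads (0.376 to 3.85 CPM) and Csf1r was at 11.0 to 27.0 CPM. Mammary epithelial genes were present in the sorted fibroblasts. Their summed level over a list of 22 was 3722 to 6002 CPM in the 6 CD26- libraries and 836 to 2015 CPM in the 6 CD26+ libraries, and the CM of line 13/44 gave the highest sum in both cell types. Control libraries held 5514 to 6244 and 878 to 1651 CPM. A line, its preparation of CM and the cultures that received it cannot be told apart, and the spread in the tests is what remains after the mean of each line and of each cell type is taken out.

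Of 13344 genes tested, 893 (6.69%) differed between the lines at a false discovery rate (FDR) under 0.05 by edgeR's quasi-likelihood F test, and 2944 had an unadjusted p under 0.05. On simulated counts this test gave a share of false calls above the nominal rate, so its FDRs may be too low. The fitted difference between the highest and the lowest line, called the range below and given on a log2 scale, had a median of 0.84 among the called genes and 0.32 among all genes tested. It was over 1 for 330 called genes and over 2 for 72 (0.54% of those tested). The size of the call moved with single libraries. Without the CD26- library of line 13/138 (replicate 9) the test called 2028 genes, and without its CD26+ library (replicate 18) 1445, of which 878 and 834 were among the 893. Without any 1 of the other 10 libraries it called 400 to 614.

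The order of the lines was shared by many called genes. In 605 of the 893 (67.7%) the CMs of 18/12, 13/44 and 13/138 were the upper 3 or the lower 3 in the fit, against 29.7% of all genes tested, and in 404 of the 605 they were the upper 3. This grouping of lines was picked after the values were seen and is a description. Line 13/138 was the highest of the 6 for 305 of the 893 called genes and for 2696 of all 13344 tested. Line 13/17 was the lowest for 249 of the 893 and for 2396 of all tested. After the mean of its cell type was subtracted, each CD26- library correlated best across genes with the CD26+ library of its own line (Pearson's r of 0.292 to 0.456, mean 0.344), whereas pairs of different lines ran from -0.352 to 0.287. By Spearman's rho this held for 5 of the 6 CD26- libraries. That of 13/138 correlated at 0.239 with the CD26+ library of 18/12 and at 0.184 with that of 13/44, against 0.168 with that of its own line. Genes are not independent replicates, and no p is attached. The 31 genes in the map by library were chosen by a test over both cell types, some of them for lying beyond the other lines in both, so the likeness of its left and right blocks follows in part from the choice.

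**Figure D1:**
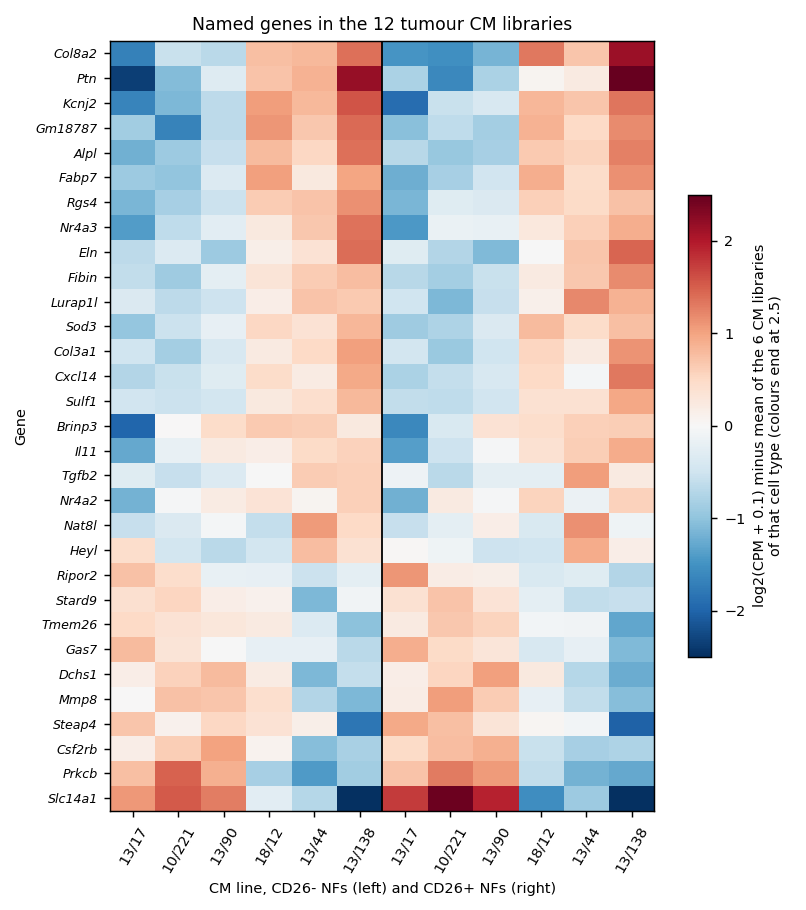
Each row is a gene and each column 1 of the 12 tumour CM libraries, CD26- NFs on the left and CD26+ NFs on the right, with the lines in the same order in both blocks. Colour gives log2(CPM + 0.1) minus the mean of the 6 libraries of that cell type, and the 31 genes were chosen over both cell types. Col3a1, for example, is above the mean of its cell type with 18/12, 13/44 and 13/138 and below it with the other lines in each block.

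Levels in single libraries are given below in 1 order, first with the CMs of 13/17, 10/221 and 13/90 and then with those of 18/12, 13/44 and 13/138. These 2 sets of lines and many of the named genes were chosen from the same values. Where the sets do not overlap in such a gene, this follows in part from the choice. The 12 genes with the smallest p among those with a range of 2 or more and a mean of 5 CPM or more were Alpl, Prkcb, Kcnj2, Fabp7, Ptn, Eln, Nr4a3, Gm18787, Col8a2, Rgs4, Il11 and Brinp3. In 10 of them, all but Prkcb and Brinp3, the CM of 13/138 gave the highest fitted level. Gm18787 is annotated as a processed pseudogene, so reads that it shares with its parent gene cannot be assigned with certainty.

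Alpl encodes tissue-nonspecific alkaline phosphatase, an enzyme of mineralising mesenchyme (chromosome 4, 137741733 to 137796384, GRCm38). Its levels in CD26- NFs were 3.21, 3.95 and 4.96 CPM and then 12.9, 10.7 and 19.6 CPM. In CD26+ NFs they were 19.6, 16.5 and 17.9 CPM and then 50.5, 46.7 and 76.1 CPM. The first 3 lines lay below the last 3 in both cell types with no overlap, and the range was 2.25 (FDR = 0.00055, edgeR). Prkcb, a protein kinase C, ran the other way, at 15.1, 25.04 and 16.6 CPM and then 4.99, 3.31 and 4.87 CPM in CD26- NFs and 2.04, 3.13 and 2.65 CPM and then 0.756, 0.479 and 0.442 CPM in CD26+ NFs (range 2.86, FDR = 0.00055, edgeR).

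Il11 is a cytokine of the interleukin 6 family that fibroblasts make under TGF-beta. It stood in CD26- NFs at 187, 399 and 532 CPM and then 508, 634 and 673 CPM. In CD26+ NFs it was at 76.2, 139.7 and 196 CPM and then 258, 306 and 381 CPM. Its lowest library in each cell type was that of 13/17, and its range was 2.09 (FDR = 0.00326, edgeR). Control cells held 1115 ± 91.2 CPM (CD26-) and 556 ± 55.9 CPM (CD26+; SD, n = 3).

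Collagens formed the list with the largest share of called members. Of 22 collagen genes 16 were called (72.7%, against 6.69% of all genes tested), the median range over the 22 was 0.97, and 13 of the 16 were higher in the fit with the CMs of 18/12, 13/44 and 13/138 than with each of the other 3. The CM of 13/138 gave the highest fitted level of 13 of the 16, and the lowest fell on 13/17 for 8 and on 10/221 for 8. In fits that left out 1 library 12 to 16 collagens were called. Col3a1, a fibrillar collagen of distensible tissue, stood in CD26- NFs at 796, 620.0 and 847 CPM and then 1300, 1573 and 2279 CPM. In CD26+ NFs it was at 4271, 3087 and 4150 CPM and then 8478, 6818 and 12810 CPM. The 2 sets of lines did not overlap in either cell type, and the range was 1.97 (FDR = 0.00055, edgeR). Control cells held 2848 ± 122 and 23550 ± 3336 CPM (CD26- and CD26+; SD, n = 3).

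Col1a1, the main chain of type I collagen, was named here after its values were seen. It was at 4257, 2893 and 3811 CPM and then 6296, 6623 and 9692 CPM in CD26- NFs and at 9920, 9575 and 11300 CPM and then 20290, 16690 and 20010 CPM in CD26+ NFs (range 1.41, FDR = 0.005, edgeR). Col5a2 and Col11a1, which take part in starting collagen fibrils, had ranges of 0.98 and 1.86, and Col14a1, a fibril-associated collagen, one of 1.93. All 3 were called, at FDRs of 0.000796, 0.000796 and 0.00134 by edgeR. Col14a1 was highest with 18/12 in the fit, and Col7a1 and Col8a1 were highest with 13/44. Col7a1, the collagen of anchoring fibrils, measured 316 CPM with 13/44 against 140.0 to 213 CPM with the other lines in CD26- NFs, and 151 against 76.8 to 107 CPM in CD26+ NFs.

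Sulf1, an extracellular enzyme that trims heparan sulfate, had the smallest p of all genes tested. It stood at 69.3, 67.1 and 70.3 CPM and then 116, 129.7 and 171 CPM in CD26- NFs and at 70.5, 69.9 and 77.4 CPM and then 140.5, 141 and 213 CPM in CD26+ NFs (range 1.48, FDR = 0.000268, edgeR). The order of the 2 sets of lines was that of the collagens. Eln, which encodes elastin, ran from 2.95 to 14.9 CPM in CD26- NFs and from 3.63 to 22.01 CPM in CD26+ NFs (range 2.47, FDR = 0.00128, edgeR).

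Contractile genes were ordered like the collagens. Of 16 members of this list 10 were called (62.5%, against 6.69% of all genes tested), the median range was 1.17, and 9 of the 10 were higher in the fit with 18/12, 13/44 and 13/138. Fits that left out 1 library called 7 to 11. Acta2, the smooth muscle actin of myofibroblasts, was at 1586, 1463 and 1552 CPM and then 2926, 2524 and 3322 CPM in CD26- NFs. In CD26+ NFs it was at 1361, 1086 and 1314 CPM and then 2166, 2646 and 2856 CPM, so the 2 sets of lines did not overlap in either cell type. The range was 1.29 (FDR = 0.00128, edgeR), and control cells held 2878 ± 27.8 and 2530 ± 83.7 CPM (CD26- and CD26+; SD, n = 3).

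Cnn1, calponin, measured 45.5, 56.3 and 62.98 CPM and then 150.0, 141 and 172 CPM in CD26- NFs and 33.01, 27.8 and 34.5 CPM and then 78.4, 105 and 111 CPM in CD26+ NFs (range 1.83, FDR = 0.000862, edgeR). Tagln and Myl9, an actin-binding protein and a myosin light chain, had ranges of 1.05 and 1.48 and were also highest with 13/138 in the fit. In CD26+ NFs Tagln was at 75.2 CPM with 13/138 and 78.8 CPM with 13/44. Des, the intermediate filament of muscle, was the exception. It was at 19.2 CPM with 13/90 and 2.61 to 11.2 CPM with the other lines in CD26- NFs, and at 0.168 to 0.303 CPM in CD26+ NFs. The skeletal muscle genes Myog and Myh3 were highest with 13/90 in the fit as well. Of 10 muscle and Schwann cell markers 4 were tested and 2 called (50%, against 6.69% of all genes tested). The summed level of the 10 markers was 63.6 CPM in the CD26- library of 13/90. It was 11.4 to 28.4 CPM in the other 5 CD26- libraries and 2.30 to 3.91 CPM in CD26+ NFs. Their part in the value of Des was not tested.

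Acta2, Cnn1 and Myl9 are also expressed by myoepithelial cells and pericytes. The epithelial sum was lowest with 18/12 in both cell types. Of 8 pericyte and smooth muscle markers 6 were tested and none was called, against 6.69% of all genes tested. An unadjusted p under 0.05 by edgeR was found for 3 of the 6, against 2944 of all 13344. The median range of the 6 was 1.34 (0.32 over all genes tested). In CD26- NFs the summed level of the 8 markers was 142.6 to 198.5 CPM with 18/12, 13/44 and 13/138 and 88.6 to 115.4 CPM with the other lines. In CD26+ NFs it was 83.5 to 90.4 against 63.5 to 109.2 CPM. Their part in the contractile genes was not tested. With the mean of the epithelial markers as a covariate, added after the data were seen, 9 contractile genes and 12 collagens were called.

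TGF-beta-responsive genes were called for 8 of 16 members (50%, against 6.69% of all genes tested), with a median range of 0.67 (0.32 over all genes tested), and 7 of the 8 were higher in the fit with 18/12, 13/44 and 13/138. The fits without 1 library called 5 (without replicate 7) to 12 (without replicate 9), and the fit with the epithelial covariate 6. Postn, periostin of the fibroblast matrix, stood at 458, 374 and 465 CPM and then 565, 919 and 1043 CPM in CD26- NFs and at 899.9, 731 and 718 CPM and then 1388, 1670 and 2390 CPM in CD26+ NFs (range 1.60, FDR = 0.00176, edgeR). All 3 TGF-beta ligands were called. Tgfb2 was highest with 13/44 in both cell types, at 38.6 CPM against 16.5 to 37.5 CPM in CD26- NFs and at 41.2 CPM against 12.4 to 23.4 CPM in CD26+ NFs. Its range was 1.48 (0.88 with the epithelial covariate), that of Tgfb3 0.90, and that of Ltbp2, which binds matrix near latent TGF-beta, 0.83.

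**Figure D2:**
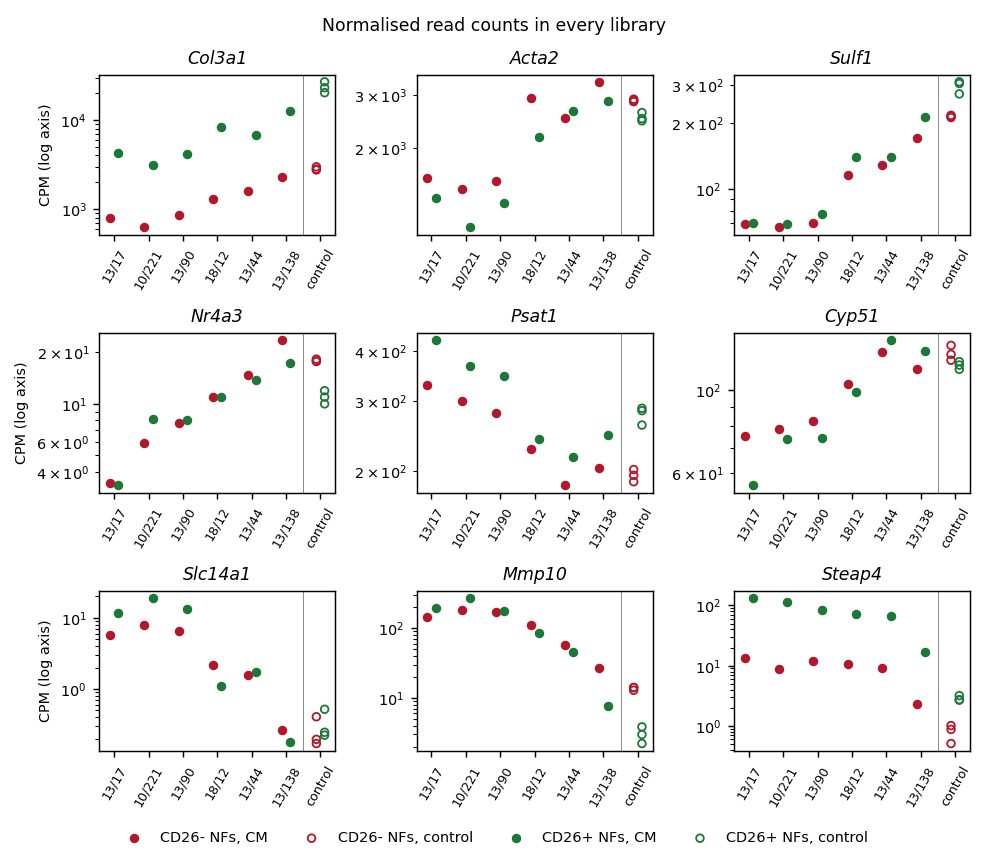
Each of 9 panels gives the CPM (log axis) of 1 gene in every library, by the line of the CM and, at the right, in control medium. Red is CD26- NFs, green CD26+ NFs, and open circles are the 3 control libraries of each cell type. Acta2, for example, runs from 1463 to 3322 CPM in CD26- NFs and from 1086 to 2856 CPM in CD26+ NFs.

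Genes that respond to cyclic AMP set line 13/17 apart. Cyclic AMP activates protein kinase A and the factor CREB, which turns on the NR4A nuclear receptors, phosphodiesterases that degrade the messenger, and the clock gene Per1. Of 16 members 9 were called (56.2%, against 6.69% of all genes tested, and 7 to 12 in the fits without 1 library), with a median range of 1.14 over the 16. All 9 were lowest with the CM of 13/17 and highest with that of 13/138 in the fit. Line 13/17 was below the mean of the other 5 at an FDR under 0.05 for 9 members of the list, against 1.38% of all genes tested, and line 13/138 above them for 8, against 2.57%.

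Nr4a3 was at 3.45, 5.92 and 7.68 CPM and then 10.9, 14.8 and 23.6 CPM in CD26- NFs, and at 3.33, 8.11 and 8.05 CPM and then 11.01, 13.8 and 17.3 CPM in CD26+ NFs. The range was 2.59 (FDR = 0.00172, edgeR). Nr4a2 measured 7.23 CPM with 13/17 and 16.1 to 25.1 CPM with the other 5 lines in CD26- NFs. In CD26+ NFs it measured 8.71 CPM against 18.1 to 30.1 CPM, and the difference of 13/17 from the other 5 was -1.44 ± 0.13 on the log2 scale (SE, FDR = 0.00236, edgeR). Nr4a1, the remaining receptor of the family, was added after its values were seen. It was at 21.8 CPM with 13/17 against 29.97 to 56.1 CPM in CD26- NFs and at 19 against 36.3 to 78.3 CPM in CD26+ NFs (FDR = 0.0109, edgeR). Among the phosphodiesterases Pde4d, Pde7b, Pde10a, Pde3b and Pde4b were called. Pde7b was at 5.22 CPM with 13/17 against 8.39 to 14.6 CPM in CD26- NFs and at 7.95 against 18.4 to 27.7 CPM in CD26+ NFs.

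The promoters of the NR4A genes are shown because these genes moved together and hold the half-site of the cyclic AMP response element. The half-site searched was TGACG on either strand, in the 250 bases before each gene's start in RefSeq (GRCm38.p6), and it was found in 17.9% of 27025 promoters. Promoters were matched for 8 of the 9 called genes of the list, and 5 of them held it, namely Nr4a1, Nr4a2, Nr4a3, Pde4b and Per1. Of 12 members with a promoter in the table, called or not, 9 held it. The palindrome in which TGACG is followed by TCA was in 1.62% of all promoters and in 0 of the 8. Each NR4A promoter held 4 half-sites, given in capitals below as TGACG or, on the other strand, CGTCA. The windows are chr15:101266596-101266845 (plus strand) for Nr4a1, chr2:57124004-57124253 (minus strand) for Nr4a2 and chr4:48045055-48045304 (plus strand) for Nr4a3.
Nr4a1: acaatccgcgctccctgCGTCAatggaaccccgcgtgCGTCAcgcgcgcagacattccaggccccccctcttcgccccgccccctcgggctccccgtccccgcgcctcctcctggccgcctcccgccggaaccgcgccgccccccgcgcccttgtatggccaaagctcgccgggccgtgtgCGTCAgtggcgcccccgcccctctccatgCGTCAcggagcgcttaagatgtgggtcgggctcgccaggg
Nr4a2: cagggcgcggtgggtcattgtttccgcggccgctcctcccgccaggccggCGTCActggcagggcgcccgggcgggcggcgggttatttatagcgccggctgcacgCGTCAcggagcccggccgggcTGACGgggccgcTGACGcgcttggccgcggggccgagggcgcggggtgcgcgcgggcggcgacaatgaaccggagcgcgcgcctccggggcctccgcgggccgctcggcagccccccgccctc
Nr4a3: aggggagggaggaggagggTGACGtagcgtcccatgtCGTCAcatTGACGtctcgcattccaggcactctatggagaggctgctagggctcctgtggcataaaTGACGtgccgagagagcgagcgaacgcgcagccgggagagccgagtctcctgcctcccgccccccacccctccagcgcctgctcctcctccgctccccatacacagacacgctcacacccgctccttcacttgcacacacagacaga
A match in a window is a description and not a site in use. The serum response element was found in 1.4% of all promoters and in 1 of 8 matched called contractile genes (Myl9). The sterol regulatory element was found in 1.04% of all promoters and in 0 of 6 matched called cholesterol genes.

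Genes of amino acid stress ran in the opposite direction to the collagens. Atf4 is the factor that cells use when amino acids are short, and its targets make serine and asparagine and take up amino acids. Of 21 members 10 were called (47.6%, against 6.69% of all genes tested, 7 to 13 in the fits without 1 library, 7 with the epithelial covariate), with a median range of 0.63. In the fit all 10 were highest with the CM of 13/17, and 8 were lowest with that of 13/44. Psat1, of serine synthesis, stood at 329, 300.5 and 280.5 CPM and then 228, 184 and 204 CPM in CD26- NFs and at 427, 368 and 346 CPM and then 241, 218 and 246 CPM in CD26+ NFs. The 2 sets of lines did not overlap in either cell type (range 0.90, FDR = 0.00109, edgeR).

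Pck2, a mitochondrial carboxykinase, was at 65.6 to 113 CPM in CD26- NFs and 138 to 252 CPM in CD26+ NFs, with a range of 0.83 (FDR = 0.000902, edgeR). Shmt2 and Phgdh, of one-carbon and serine metabolism, had ranges of 0.64 and 0.61. Asns and Slc7a5, asparagine synthetase and an amino acid transporter, were also called, whereas Atf4 itself, Ddit3, Trib3 and Chac1 did not pass the test. These 6 were named after their values were seen. Genes of glycolysis and hypoxia were called for 6 of 22 members (27.3%, against 6.69%), 4 of them highest with 13/17 in the fit. Without replicate 9 the count was 13, and without replicates 4, 7 or 16 it was 1. With the epithelial covariate it was 2. Bnip3, a mitophagy receptor that hypoxia induces, was at 23.2 to 50.3 CPM in CD26- NFs and 49.05 to 108 CPM in CD26+ NFs. It lost its call in 4 of the 12 fits without 1 library, with an FDR of up to 0.0799 by edgeR, and had an FDR of 0.0985 with the epithelial covariate.

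Cholesterol and fatty acid synthesis separated 13/44 from 13/17. Of 24 members 9 were called (37.5%, against 6.69% of all genes tested) and 19 had an unadjusted p under 0.05, with a median range of 0.78. All 9 were lowest with 13/17 and highest with 13/44 in the fit. Cyp51, the lanosterol demethylase, was at 75.2, 78.4 and 82.6 CPM and then 103, 126 and 113 CPM in CD26- NFs and at 55.6, 74.1 and 74.6 CPM and then 98.7, 136 and 127 CPM in CD26+ NFs (range 1.01, FDR = 0.00728, edgeR). Scd2, a fatty acid desaturase, was at 428 CPM with 13/17 and 712 CPM with 13/44 in CD26- NFs and at 446 and 756 CPM in CD26+ NFs. Dhcr7 and Insig1, an enzyme and a feedback regulator of the pathway, had ranges of 0.66 and 1.01. Hmgcs1, named after its values were seen, did not pass the test.

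The epithelial sum was also highest with 13/44, at 6002 CPM against 3722 to 4957 CPM in CD26- NFs and at 2015 against 836 to 1474 CPM in CD26+ NFs. Of 18 epithelial markers tested 1 was called between the lines (Krt19, a share of 5.56%, against 6.69% of all genes tested). An unadjusted p under 0.05 by edgeR was found for 15 of the 18, against 2944 of all 13344 genes tested. Set against the other 5 lines, 13/44 was higher for 5 of the 18 at an FDR under 0.05 by edgeR, against 3.1% of all genes tested. With the epithelial mean as a covariate 4 cholesterol genes were called. The fits without 1 library called 4 (without the CD26+ library of 13/44) to 15 (without the CD26- library of 13/138). The part of the epithelial cells in these values was not tested.

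**Figure D3:**
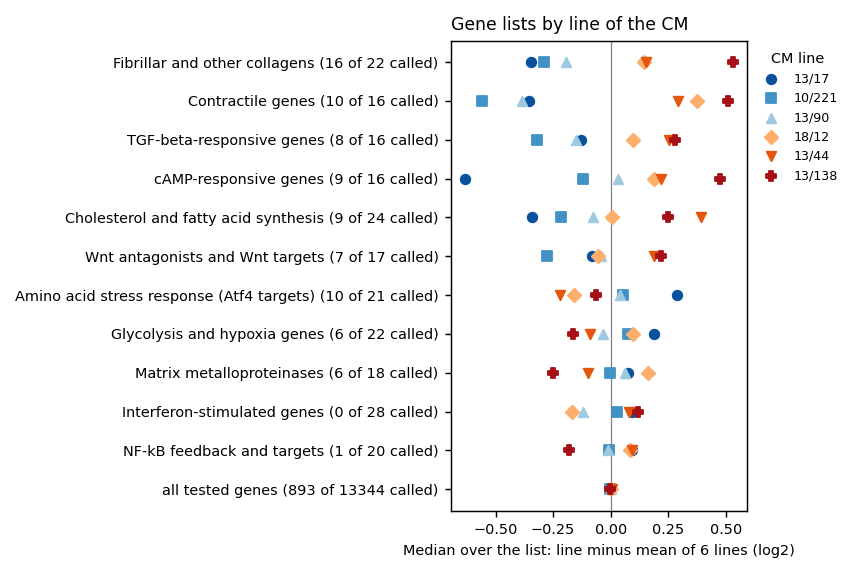
Each point is the median over the tested members of a list of 1 line's level minus the mean of the 6 lines (log2, both cell types). The collagen medians run from -0.35 with 13/17 to 0.53 with 13/138, and those of the Atf4 targets from -0.22 with 13/44 to 0.29 with 13/17.

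Matrix metalloproteinases, which cut matrix proteins, were called for 6 of 18 members (33.3%, against 6.69% of all genes tested), and 4 of the 6 were lowest with 13/138 in the fit. Without replicate 9 the count was 10, and without replicates 8, 16 or 17 it was 1. With the epithelial covariate it was 2, and Mmp10 and Mmp13 had FDRs of 0.101 and 0.118 by edgeR. Mmp10, stromelysin 2, stood at 143, 183 and 172 CPM and then 111, 56.8 and 27.1 CPM in CD26- NFs, and at 197, 271 and 174 CPM and then 84.9, 46.2 and 7.69 CPM in CD26+ NFs (range 3.73, FDR = 0.0273, edgeR). In control medium it was at 13.7 ± 0.705 and 3.02 ± 0.816 CPM (CD26- and CD26+; SD, n = 3). Mmp8, a collagenase, was highest with 10/221, at 24.8 against 6.81 to 23.97 CPM in CD26- NFs and 11.8 against 2.65 to 8.85 CPM in CD26+ NFs (FDR = 0.00404, edgeR). Mmp13 was at 62.9 CPM with 13/17 and 12.2 CPM with 13/138 in CD26- NFs and at 69.1 and 5.13 CPM in CD26+ NFs (FDR = 0.0302, edgeR). Mmp10 and Mmp13 lost their calls in 7 and 9 of the 12 fits without 1 library. Mmp3 was at 588 to 1817 CPM in CD26- NFs and 83.8 to 2385 CPM in CD26+ NFs, a range of 2.84 that did not pass the test (FDR = 0.268, edgeR, and 0.0344 without replicate 9), and Mmp9 did not pass it either.

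The myeloid chemokines did not pass the test between lines with all 12 libraries. Ccl2, Ccl7, Ccl8, Cxcl2 and Cxcl12 had FDRs of 0.353 to 0.684 by edgeR. Cxcl12 was at 67.5, 37.7 and 36.8 CPM and then 126, 80.5 and 119.9 CPM in CD26- NFs. In CD26+ NFs it was at 1856, 1283 and 1064 CPM and then 1709, 1386 and 749 CPM. The order of its lines thus differed between the cell types, which adds to the residual spread of this test. Without replicate 9 the FDR was 0.0158 for Ccl2, 0.00422 for Ccl7 and 0.00432 for Ccl8, and without replicate 18 it was 0.0155 for Ccl7 (edgeR). Il6 was at 33.5 to 114 CPM in CD26- NFs and 67.9 to 164 CPM in CD26+ NFs (FDR = 0.417, edgeR). Of 14 tested chemokines 2 were called, Cxcl14 and Cx3cl1 (14.3%, against 6.69% of all genes tested). The count was 6 without replicate 9 and 1 without replicates 5, 8, 14 or 17, and Cx3cl1 lost its call in 5 of the 12 fits without 1 library. Cxcl14, a chemokine of resting fibroblasts, stood at 416, 468 and 559.5 CPM and then 946, 794 and 1332 CPM in CD26- NFs. In CD26+ NFs it was at 186, 212 and 245 CPM and then 457, 312 and 805 CPM, and the highest line in both was 13/138 (1.37 ± 0.09 log2 against the other 5, SE, FDR = 0.000138, edgeR).

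Of 16 genes of the interleukin 6 and 1 families and colony-stimulating factors 5 were called (31.2%, against 6.69% of all genes tested, 2 to 8 when 1 library was left out, the 8 without replicate 9, and 3 with the epithelial covariate). Csf3, which drives granulocyte production, was at 10.3 CPM with 13/138 against 21.8 to 41.3 CPM in CD26- NFs and at 1.33 against 6.25 to 8.85 CPM in CD26+ NFs (FDR = 0.0124, edgeR). Il1rn, the interleukin 1 receptor antagonist, was highest with 13/138, at 7.70 against 1.85 to 3.92 CPM in CD26- NFs and at 132 against 6.03 to 27.2 CPM in CD26+ NFs (FDR = 0.0336, edgeR). It lost its call in 10 of the 12 fits without 1 library. Steap4, a metalloreductase induced by inflammation, was the 1 called member of 12 acute-phase and complement genes, a share of 8.33% that is near the 6.69% of all genes. Without replicate 9 the count was 8. It stood at 13.4, 8.89 and 11.8 CPM and then 10.6, 9.11 and 2.30 CPM in CD26- NFs, and at 133, 116 and 85.6 CPM and then 71.5, 66.05 and 16.97 CPM in CD26+ NFs (FDR = 0.00533, edgeR, and 0.0509 without replicate 18). Tnfaip2 was the 1 called member of 20 NF-kB feedback genes and targets, and H2-T22 that of 15 genes of class I antigen presentation. These shares, 5% and 6.67%, are near that of all genes. The counts ran from 0 to 6 and from 0 to 5 in the fits without 1 library, highest without replicate 9, and Tnfaip2 and H2-T22 lost their calls in 6 and 9 of the 12. With the epithelial covariate H2-T22 had an FDR of 0.285 by edgeR.

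Of 31 stromal growth factors 7 were called (22.6%, against 6.69% of all genes tested). The count was 16 without replicate 9, 14 without replicate 18 and 4 without replicate 6. Grem1, an antagonist of bone morphogenetic proteins, was at 496, 604 and 539 CPM and then 397, 227 and 253 CPM in CD26- NFs and at 278, 415 and 323 CPM and then 148, 134 and 113 CPM in CD26+ NFs (FDR = 0.0104, edgeR), so that it ran against the collagens. Bmp2, a ligand that it binds, was at 0.354 CPM with 13/138 against 1.54 to 3.49 CPM in CD26- NFs and at 0.177 against 0.957 to 3.33 CPM in CD26+ NFs (FDR = 0.0133, edgeR). Of 17 Wnt antagonists and targets 7 were called (41.2%), with 10 without replicate 9 or 18 and 4 without replicate 7, 14 or 16 or with the epithelial covariate. Sfrp1, a secreted Wnt antagonist, stood at 69.8, 55.4 and 75.3 CPM and then 184, 172 and 282 CPM in CD26- NFs and at 413, 429 and 441 CPM and then 669, 658 and 1398 CPM in CD26+ NFs (FDR = 0.0151, edgeR, and 0.058 without replicate 18). Wnt5a and Dkk3 had ranges of 0.59 and 0.85.

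Among markers of CD26+ and progenitor fibroblasts Cd34, Cd55 and Fbn1 were called, of 11 (27.3%, against 6.69% of all genes tested, and 2 to 5 in the fits without 1 library, the 5 without replicate 9 or 18). Fbn1 lost its call in 8 of these 12 fits and in 5 of the 6 without a line, with an FDR of up to 0.114 by edgeR. Cd34 was at 25.1, 20.7 and 18.9 CPM and then 7.56, 5.04 and 2.65 CPM in CD26- NFs, and at 16.4, 12.4 and 16.1 CPM and then 4.20, 6.38 and 4.60 CPM in CD26+ NFs (range 2.48, FDR = 0.0132, edgeR). Cd55, which shields cells from complement, was lowest with 13/17, at 22.7 against 39.6 to 49.95 CPM in CD26- NFs and at 7.65 against 18.8 to 21.3 CPM in CD26+ NFs. Dpp4, whose levels are given above, did not pass the test between lines (FDR = 0.127, edgeR).

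Of 13 adipogenic genes 3 were called (23.1%, against 6.69% of all genes tested), among them the lipid droplet genes Plin4 and Plin1. The count was 6 without replicate 4 and 0 without replicate 13 or 16, the libraries of 13/17 and of 13/44 in CD26+ NFs. Plin4 was highest with 13/17 in both cell types, at 3.45 against 0.677 to 2.96 CPM in CD26- NFs and at 9.24 against 1.52 to 5.21 CPM in CD26+ NFs. Plin1 was highest with 13/17 in CD26+ NFs, at 13.5 against 2.55 to 8.40 CPM. In CD26- NFs it stood near 0, at 0.321 CPM with 13/17 and 1.15 CPM with 13/138, and it lost its call in 9 of the 12 fits without 1 library. Gpx3 and Gpx1 were the 2 called of 19 antioxidant genes (10.5%, 3 without replicate 8 or 9 and 1 without replicate 16), and Egr1 and Fos the 2 of 15 YAP and SRF targets (13.3%). The count of the latter list was 8 without replicate 9, 6 without replicate 18 and 1 in 7 of the other fits, and Fos lost its call in 7 of the 12. With the epithelial covariate the antioxidant list and the YAP and SRF list had 1 called member each, with FDRs of 0.0575 for Gpx1 and 0.259 for Fos by edgeR.

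In the test between the 6 lines, 3 of 28 interferon-stimulated genes had an unadjusted p under 0.05 by edgeR, against 2944 of all 13344. None of the 28 was called by edgeR, DESeq2 or limma-voom, against 6.69% of all genes tested by edgeR. Without replicate 18 the count was 3, and with no filter on low counts or with all 18 libraries in the fit it was 1. The median range over 30 cell cycle genes was 0.70 (0.32 over all genes tested). Their summed level was 2199 to 2764 CPM in CD26- NFs and 803.5 to 2476 CPM in CD26+ NFs. A difference between lines in only 1 cell type adds to the residual spread of this test. Of the 30, 0 had an unadjusted p under 0.05 by edgeR, and none was called by the 3 tools. Without replicate 9 the count was 2. Mki67, the proliferation antigen, was at 152 to 257 CPM in CD26- NFs and at 59.6 to 207 CPM in CD26+ NFs (FDR = 0.452, edgeR).

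Each line was then set against the mean of the other 5. Line 13/44 gave 605 genes at an FDR under 0.05 by edgeR (4.53% of those tested), of which 414 (3.1%) were higher and 191 (1.43%) lower. Line 13/138 gave 531 (3.98%), with 343 (2.57%) higher and 188 (1.41%) lower, and 13/17 gave 330 (2.47%), with 146 (1.09%) higher and 184 (1.38%) lower. Line 10/221 gave 123 (0.922%), with 37 (0.277%) higher and 86 (0.644%) lower. Line 13/90 gave 11 (0.0824%), with 7 (0.0525%) higher and 4 (0.03%) lower, whereas DESeq2 gave it 17 higher and 43 lower and the fit of all 18 libraries 26 and 46. Line 18/12 gave 9 (0.0674%), all higher and 0 (0%) lower. For 18/12, 624 genes were lower at an unadjusted p under 0.05 by edgeR, and DESeq2 called 25 genes lower and limma-voom 0. These counts rest on few libraries. The 605 of 13/44 became 39 without its CD26- library (replicate 7), 11 without its CD26+ library (replicate 16) and 0 with the epithelial mean as a covariate. The 330 of 13/17 became 81 and 16 without its own libraries (replicates 4 and 13), the 123 of 10/221 became 0 and 1 (replicates 5 and 14), and the 531 of 13/138 became 1499 and 304 (replicates 9 and 18).

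**Figure D4:**
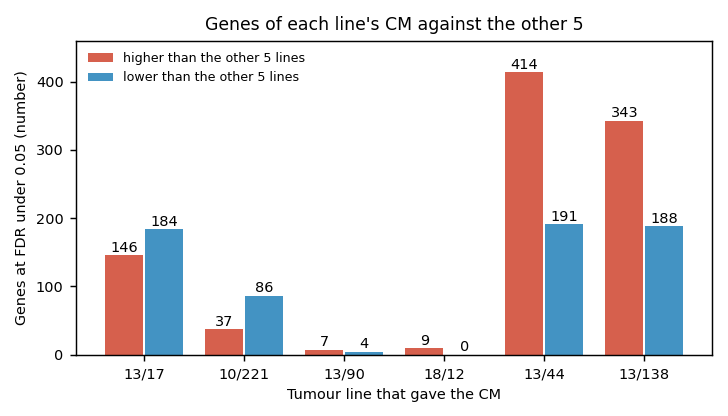
Bars give the number of genes, of 13344 tested, at an FDR under 0.05 (edgeR) that were higher or lower with 1 line's CM than with the mean of the other 5. The CM of 13/44 has the tallest bar, with 414 genes higher, and 13/90 and 18/12 have under 10 in each direction.

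With the CM of 13/17, Kcnj2, an inward rectifier potassium channel, was at 1.04 CPM against 1.55 to 10.6 CPM in CD26- NFs and at 3.33 against 8.71 to 32.7 CPM in CD26+ NFs (-2.26 ± 0.20 log2 against the other 5, SE, FDR = 0.00236, edgeR, and 0.0702 without replicate 13). Sod3, the extracellular superoxide dismutase, was also lowest there, at 61.3 against 82.7 to 212 CPM and at 144 against 156 to 464 CPM. Gas7, a growth arrest-specific gene, was highest there, at 36.9 against 13.2 to 26.4 CPM in CD26- NFs and at 59.3 against 14.6 to 43.8 CPM in CD26+ NFs (1.03 ± 0.10 log2, SE, FDR = 0.00236, edgeR, and 0.0653 without replicate 13). Ripor2 was also highest there (FDR = 0.00886, edgeR, and 0.162 without replicate 13), and its call between the 6 lines was lost in 4 of the 12 fits without 1 library and in 2 of the 6 without a line.

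Line 10/221 gave the highest Prkcb (1.74 ± 0.12 log2 against the other 5, SE, FDR = 0.001, edgeR). Slc14a1, a urea transporter, was also highest with 10/221, at 7.90 against 0.265 to 6.59 CPM in CD26- NFs and at 19.1 against 0.177 to 13.3 CPM in CD26+ NFs (2.53 ± 0.29 log2, SE, FDR = 0.0199, edgeR). Control cells held 0.257 ± 0.130 and 0.329 ± 0.164 CPM (CD26- and CD26+; SD, n = 3). Col3a1, Fibin and Lurap1l were lowest with 10/221. Each of the 6 genes named for this line lost the line's call in at least 1 of the 12 fits without 1 library, Prkcb in 1 (FDR = 0.0913 by edgeR without replicate 5) and Lurap1l in 7. With the epithelial mean as a covariate Prkcb kept the call (FDR = 0.0127, edgeR), and the other 5 had FDRs of 0.0677 to 0.287. Their log2 differences from the other lines were then 2.30 for Slc14a1, 0.98 for Mmp8, -1.13 for Col3a1, -1.20 for Fibin and -0.88 for Lurap1l, against 2.53, 1.05, -1.07, -1.04 and -1.04 without it.

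Line 13/44 gave the highest Nat8l, which makes N-acetylaspartate, at 27.03 against 8.52 to 18.3 CPM in CD26- NFs and at 5.03 against 1.44 to 2.48 CPM in CD26+ NFs (1.33 ± 0.13 log2, SE, FDR = 0.00623, edgeR). Heyl, a Notch target, was at 29.4 against 10.7 to 23.1 CPM and at 37.2 against 13.6 to 22.01 CPM. Csf2rb, the shared beta chain of the receptors for interleukin 3, interleukin 5 and GM-CSF, was lowest with 13/44 and highest with 13/90, at 2.33 and 10.2 CPM in CD26- NFs and at 10.2 and 33.8 CPM in CD26+ NFs. Of the 5 genes named for 13/44 (these 3, Tgfb2 and Stard9), Nat8l, Heyl, Csf2rb and Stard9 lost the line's call when 1 of its own libraries was left out, whichever it was, at FDRs of 0.0519 (Heyl) to 0.179 (Stard9) without replicate 7 and of 0.0561 (Nat8l) to 0.133 (Csf2rb) without replicate 16 by edgeR. Tgfb2 lost it without replicate 16 (FDR = 0.091, edgeR). With the epithelial mean as a covariate the 5 genes had FDRs of 0.398 to 0.583 for this line by edgeR. Their log2 differences from the other lines were then 1.11 for Nat8l, 1.20 for Heyl, -1.17 for Csf2rb, -1.24 for Stard9 and 0.56 for Tgfb2, against 1.33, 1.03, -1.11, -1.001 and 1.02 without it. The part of the epithelial cells in these differences was not tested. Line 13/90 added Dchs1, a protocadherin, at 24.4 against 6.47 to 21.2 CPM and at 54.05 against 11.2 to 38.7 CPM (1.09 ± 0.13 log2, SE, FDR = 0.0272, edgeR), a call lost in 10 of the 12 fits without 1 library. None of the 9 genes called for 18/12 lay beyond all other lines in both cell types, as 3.27% (higher) and 3.45% (lower) of all genes tested did for this line.

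Line 13/138 had the highest Sulf1 (1.08 ± 0.06 log2 against the other 5, SE, FDR = 8.27e-05, edgeR) and Alpl (1.57 ± 0.10, FDR = 0.000138), and both kept the line's call in all 12 fits without 1 library. Steap4 was lowest with it (-2.38 ± 0.21 log2, SE, FDR = 0.00128, edgeR, and 0.0626 without replicate 18), as were Tmem26 and Gas7. Tmem26, a transmembrane protein, was at 6.02 against 9.79 to 17.5 CPM in CD26- NFs and at 14.1 against 32.8 to 56.1 CPM in CD26+ NFs. Ptn, the growth factor pleiotrophin, was at 2.21 against 0 to 0.828 CPM and at 48.4 against 2.01 to 7.42 CPM, and control cells held 14.3 ± 1.10 and 439 ± 14.3 CPM (CD26- and CD26+; SD, n = 3).

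The lines also differed in how far they moved the fibroblasts from control medium. For each line, genes were chosen that differed between the CMs of the other 5 lines and control at an FDR under 0.05 and by over 2 on the log2 scale, and the line's own change was read from them. For 13/138 this gave 114 higher genes in CD26- NFs (0.832% of those tested) and 234 in CD26+ NFs (1.73%). With 13/138 the median log2 change of the higher genes was 1.54 in CD26- NFs, where the other 5 lines had 1.97 to 2.75 on the same genes, and 1.27 in CD26+ NFs, where the others had 2.20 to 2.74. Among the 25 (0.183%) and 82 (0.605%) lower genes it was -1.19 and -1.15, against -2.67 to -1.43 and -2.87 to -2.04. Line 13/44 had -1.06 on 26 lower genes (0.192%) in CD26- NFs, against -2.93 to -1.36. The genes were chosen with the other 5 lines, which favours those lines on them, and with 1 library per line and cell type these differences have no test. Fewer responding cells and a smaller change per cell cannot be told apart in bulk RNA.

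**Figure D5:**
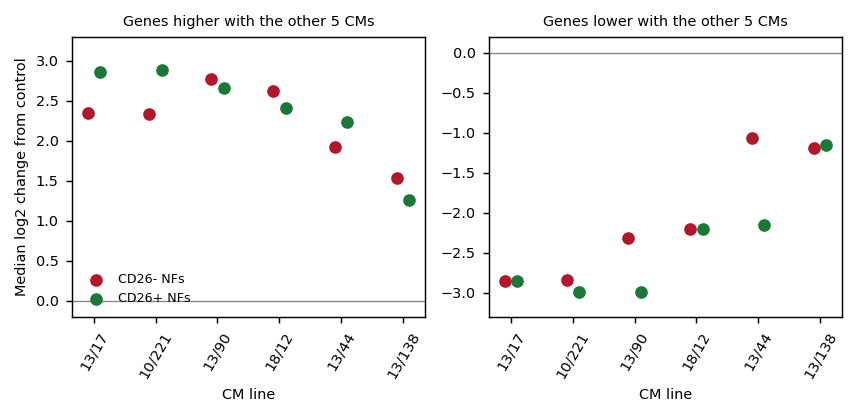
Points give the median log2 change of 1 library from the control mean of its cell type, over genes chosen without that line, for genes higher and genes lower with the other 5 CMs. Line 13/138 has the smallest change of higher genes in both cell types, 1.54 and 1.27.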

How the data were processed

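RNA of 18 fibroblast cultures was sequenced (stranded mRNA libraries, single-end), and the 12 libraries of tumour CM were compared. The authors deposited raw counts per gene, with HISAT2 2.1.0, HTSeq and GRCm38 in the submitters' processing notes. The counting options are not given in the sources used here. Groups were taken from the sample labels.

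The counts were tested in R 4.3.3 with edgeR 4.0.16 (filterByExpr, TMM, robust quasi-likelihood F test of line with cell type as a covariate, 5 residual degrees of freedom, Benjamini-Hochberg), and with DESeq2 1.42.0 and limma 3.58.1 as alternatives. Other scalings, filters, covariates and left-out libraries and lines were also tried. On simulated counts most changed genes were recovered, but the share of false calls was above the nominal rate, so FDRs may be too low.

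The text names the 12 genes of smallest p with a range of at least 2, up to 3 genes per line and direction that lay beyond the other lines in both cell types, up to 4 called genes per list, and a fixed set of chemokine, protease and marker genes. The members and lists were chosen with earlier results of these data known. A few genes and alleles are not reported here. Several mice were pooled for a sort. Whether cultures of 1 group came from separate sorts is not given in the sources used here, so p-values may measure technical spread.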

Additional observations from a re-analysis of the deposited data

Results flagged for a closer look

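On the log2 scale, a gap to the nearest of the other 5 libraries of the same cell type, divided by the whole range of the 6, was above Dixon's critical value for 6 libraries in 10 of 184 groups checked (92 genes). Chance alone gives about 1 in 20 such groups, but this rate does not apply to genes that were named because 1 line lay beyond the others in both cell types, and no cause was tested.

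With the CM of 13/17, the low value was that of Brinp3 in CD26- NFs, at 1.04 CPM against 4.44 CPM in the nearest library (gap ratio 0.754). Nr4a2 in CD26- NFs was at 7.23 CPM against 16.1 CPM in the nearest library (gap ratio 0.64). Pde7b in CD26+ NFs was at 7.95 CPM against 18.4 CPM in the nearest library (gap ratio 0.671). The complement regulator Cd55 was low in both cell types, at 22.7 CPM against 39.6 CPM in the nearest library (gap ratio 0.704) in CD26- NFs and at 7.65 CPM against 18.8 CPM in the nearest library (gap ratio 0.877) in CD26+ NFs.

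With the CM of 13/138, Steap4 was low in both cell types, at 2.30 CPM against 8.89 CPM in the nearest library (gap ratio 0.763) in CD26- NFs and at 17.0 CPM against 66.0 CPM in the nearest library (gap ratio 0.659) in CD26+ NFs. In CD26+ NFs Csf3 was low, at 1.33 CPM against 6.25 CPM in the nearest library (gap ratio 0.812). Of the monocyte chemokines, Ccl2 was low there at 485 CPM against 759 CPM in the nearest library (gap ratio 0.634), and Ccl8 at 4.33 CPM against 18.6 CPM in the nearest library (gap ratio 0.827). The 4 values in CD26+ NFs, Steap4 included, come from 1 library, replicate 18.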

How the results depend on the processing

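No difference of a named gene between 1 line and the others changed direction under any alternative, but the balance of higher and lower calls did for 3 lines. For 13/90 it was 7 higher and 4 lower, against 17 and 43 with DESeq2, 51 and 59 with no filter, 26 and 46 with all 18 libraries and 0 and 1 with the epithelial covariate. For 13/17 it was 146 and 184, against 392 and 388 with all 18 libraries. For 10/221 it was 37 and 86, against 1 and 0 with the epithelial covariate. For the genes that differed between lines (893), DESeq2 gave 1374, no filter on low counts 1730, all 18 libraries in the fit 1886, the epithelial covariate (added after the data were seen) 425 and a range over 2 gave 72. Leaving out 1 library gave 400 to 2028 and leaving out 1 line 417 to 1453. Among the line contrasts, no filter gave 520 genes for 13/17, 331 for 10/221, 221 for 18/12, 912 for 13/44 and 110 for 13/90. All 18 libraries gave 780, 422, 213, 1092 and 72 in that order and 1159 for 13/138. DESeq2 gave 240 for 10/221, 123 for 18/12 and 60 for 13/90. The epithelial covariate gave 1 for 10/221, 0 for 18/12, 0 for 13/44, 1 for 13/90 and 343 for 13/138. A mean of at least 5 CPM gave 78 for 10/221 and 0 for 13/90. A difference over 2 on the log2 scale gave 16 for 13/138, 1 for 13/90, 1 for 13/44, 0 for 18/12, 2 for 10/221 and 7 for 13/17. Without 1 library the counts ran from 16 to 848 for 13/17, 0 to 446 for 10/221, 0 to 253 for 18/12, 11 to 1216 for 13/44, 0 to 77 for 13/90 and 272 to 1499 for 13/138. Without 1 other line they ran, in the same order, from 134 to 474, 7 to 330, 0 to 559, 257 to 1756, 0 to 56 and 219 to 736. Where these fits left a line with 1 library, that library was assumed to vary like the others. The mean correlation of same-line libraries was 0.447 over genes with at least 5 CPM and 0.288 by Spearman's rho. The causes were not tested.

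Of 83 named genes called, 58 kept their call in all 12 fits without 1 library and 65 in the other settings. The CD26- and the CD26+ library of a line were paired by the line term of the fit. The sample numbers differ between groups and give no further block. With 2 libraries per line, 1 of each cell type, a gene that responds to a line in only 1 cell type adds to the residual spread.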
